A study of Mus musculus with 2 samples.

Results

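The genes described here encode 7 matrix metalloproteinases (MMPs), Mmp2, Mmp8, Mmp9, Mmp12, Mmp13, Mmp14 and Mmp19, and 3 tissue inhibitors of metalloproteinases (TIMPs), Timp1, Timp2 and Timp3. They were taken by symbol, 10 genes of the 55536 annotated genes in the gene tables, and each symbol matched 1 identifier. They were measured by RNA-seq of polyadenylated RNA in primary macrophages grown from C57BL/6J bone marrow and treated for 30 min with 100 ng/ml of a ligand. The labels name it lipid A in the free text and lipoprotein A in the treatment field. There was 1 group of 2 libraries, biological replicates 1 and 2, drawn from different biosample records of the same donor record, and the labels give neither age nor sex of the mice. No untreated library is part of the series, so the levels describe treated macrophages and show no response to the ligand.

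MMPs are zinc-dependent proteases that cut collagens, elastin, other matrix proteins and a range of cytokines and surface proteins. Most are secreted as latent enzymes whose propeptide blocks the active site until it is cleaved, while the membrane-type MMPs are activated inside the cell and displayed on its surface. TIMPs occupy the active site of MMPs and of some ADAM proteases, the membrane sheddases that release TNF and other ligands. Macrophages are known for macrophage elastase (Mmp12), and use these proteases to remodel matrix and to move through it.

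Replicate 1 held 37784941 expected counts, the estimated reads per gene, over annotated genes and replicate 2 held 51904470. A count of 0 allows up to 3 counts, which is a CPM (the count scaled by library total) of 0.0794 in replicate 1 and 0.0578 in replicate 2. Levels are given as TPM, the share of transcripts corrected for their length. In each pair of values replicate 1 comes first, and a mean is ± SD with n = 2. All 10 macrophage markers, among them Adgre1, Csf1r and Lyz2, reached 10 TPM in each library. Their summed level was 22355 and 28732 TPM, most of it Lyz2 at 15907 and 22127 TPM. Nothing in the labels says that the biosamples came from separate animals. Technical and biological spread between the libraries cannot be told apart here.

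The family was carried by a few genes. At the limit of 1 TPM in both libraries, 6 of the 10 genes were detected (Timp2, Mmp12, Mmp19, Mmp14, Mmp8 and Mmp13), against 19.2% of all annotated genes and 45.3% of protein-coding genes. At 10 TPM in both libraries the count was 5, against 11.6% of all genes, and at 100 TPM it was 1, against 1.95%. Timp2 alone passed 100 TPM in both libraries. Mmp9 passed 1 TPM in replicate 1 only, and Mmp2, Timp1 and Timp3 were below 1 TPM in both. The 10 genes were chosen with earlier results of these data known, and 15 of 16 other MMP genes were below 1 TPM in both libraries. The detected share of the 10 therefore does not describe MMP genes at large.

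Timp2 (ENSMUSG00000017466.9, chromosome 11, 118301069 to 118355740, minus strand) encodes an inhibitor that also bridges latent MMP2 to MMP14 at the cell surface. It was at 575.42 TPM in replicate 1 and 323.76 TPM in replicate 2, a mean of 450 ± 178 TPM. By mean level it ranked at place 273 among the 10658 detected genes. Timp2 made up 99.9% and 99.8% of the summed TIMP level.

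Timp1 (ENSMUSG00000001131.11, chromosome X, 20870166 to 20874735), the secreted inhibitor that pairs with latent MMP9, had 4 and 10 counts, or 0.26 and 0.51 TPM. Timp3 (ENSMUSG00000020044.13, chromosome 10, 86300372 to 86349506), the inhibitor that stays bound to the matrix and acts on ADAM17, had 48 and 30 counts, or 0.43 and 0.19 TPM. Both were far below Timp2, and their order differed between the libraries. Each lies within the span of a synapsin gene on the opposite strand. Syn1, around Timp1, was at 13.4 and 9.64 TPM and shares no exonic base with it. Syn3 shares 1733 exonic bases with Timp3 and had 3 and 0 counts. Whether the counting used strand is not given in the sources used here.

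Mmp12 (ENSMUSG00000049723.14, chromosome 9, 7344381 to 7369499) was the highest of the 7 MMPs, at 133.02 and 82.35 TPM, a mean of 108 ± 35.8 TPM. It made up 65.7% and 61% of the summed level of the 7. The collagenases, which cut fibrillar collagen, were lower. Mmp8 (ENSMUSG00000005800.3, chromosome 9, 7558456 to 7568485), the collagenase known from neutrophil granules, was at 17.7 and 10.8 TPM. Mmp13 (ENSMUSG00000050578.10, chromosome 9, 7272514 to 7283331), a collagenase known from cartilage and bone, was at 6.02 and 10.7 TPM. Mmp8 was thus above Mmp13 in both libraries, but in replicate 2 by a margin of 10.85 to 10.74 TPM, and the second deposited quantification placed Mmp8 at 9.954 and Mmp13 at 9.996 TPM there.

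The gelatinases, which cut denatured collagen and basement membrane collagen, were near or below the limit. Mmp9 (ENSMUSG00000017737.2, chromosome 2, 164940780 to 164955850) had 78 and 59 counts, or 1.29 and 0.84 TPM, and 0.870 and 0.532 TPM in the second quantification. In the first quantification its coding transcript Mmp9-201 was at 0.98 and 0.47 TPM. The rest was Mmp9-204, annotated without coding sequence, at 0.31 and 0.37 TPM. Mmp2 (ENSMUSG00000031740.8, chromosome 8, 92827291 to 92853420) had 24 and 40 counts, or 0.49 and 0.53 TPM. Mmp9 was above Mmp2 in both libraries, but in the second quantification Mmp2 was the higher of them in replicate 2, at 0.766 TPM. Mmp14 (ENSMUSG00000000957.11, chromosome 14, 54431612 to 54445364), the membrane-anchored protease that cuts collagen and activates latent MMP2, was at 20.1 and 12.7 TPM. Mmp14 and Timp2 were thus present with little Mmp2 mRNA, and the TPM of Timp2 was 28.6 and 25.6 times that of Mmp14. Mmp19 (ENSMUSG00000025355.7, chromosome 10, 128790910 to 128800824), which acts on basement membrane proteins, was at 23.6 and 17.0 TPM. It was the only one of the 10 genes with counts that were not whole within 0.005, and it shares 789 exonic bases with Tmem198b on the opposite strand, which was at 8.25 and 7.63 TPM.

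In order of mean level the genes ran Timp2, Mmp12, Mmp19, Mmp14, Mmp8, Mmp13, Mmp9, Mmp2, Timp1 and Timp3. Timp2 lay 4.18-fold above Mmp12, and Mmp12 5.30-fold above Mmp19, and in both steps the ranges of the libraries did not overlap. The neighbours Mmp19 and Mmp14, Mmp14 and Mmp8, Mmp2 and Timp1, and Timp1 and Timp3 had overlapping ranges. The plot of levels by gene and library shows these steps. The 3 TIMP genes summed to 576 and 324 TPM and the 7 MMP genes to 202 and 135 TPM, a ratio of 2.85 and 2.40.

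**Figure D1:**
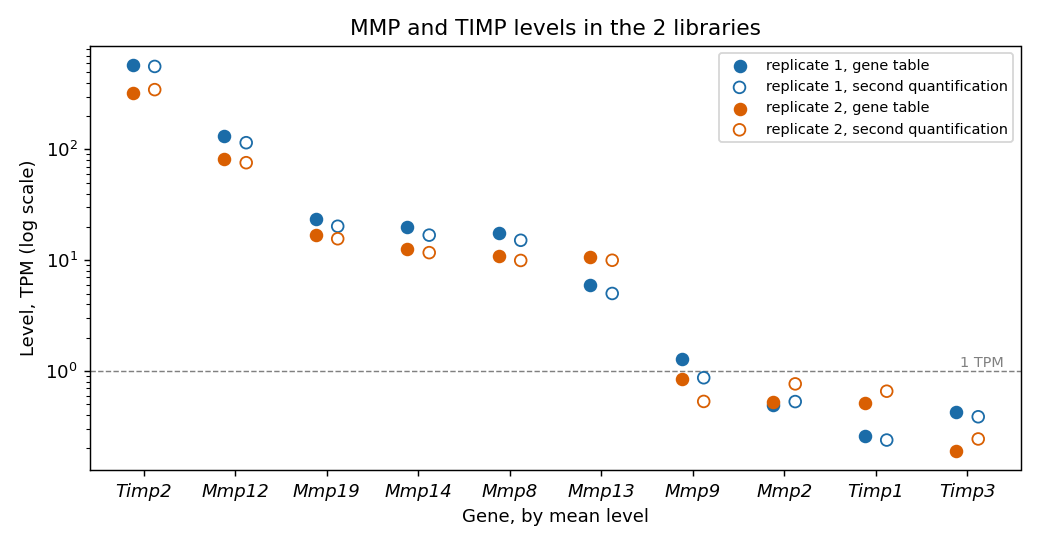
Level in TPM on a log axis of the 10 genes in order of mean level, with filled points from the gene tables and open points from the second quantification, blue for replicate 1 and orange for replicate 2. Timp2 stands highest at 575.42 and 323.76 TPM, Mmp12 next at 133.02 and 82.35 TPM, and 4 genes lie near or below the dashed line at 1 TPM.

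Mmp8, Mmp12 and Mmp13 belong to a cluster of 10 MMP genes within 427 kb of chromosome 9, and the cluster was read gene by gene to place them. Its genes at 1 TPM or above stood in pairs of neighbours, Mmp13 with Mmp12 and Mmp8 with Mmp27. From Mmp13 onward came Mmp12, then Mmp1b with 0 counts in both libraries, Mmp3 with 0 and 1, Mmp1a with 0 and Mmp10 with 14 and 9 counts. Beyond these stood Mmp8 and, next to it, Mmp27 (chromosome 9, 7571396 to 7581885) at 68.0 and 77.4 TPM. Mmp20 and Mmp7 at the far end had 0 counts. Mmp27 is outside the 10 genes, but its mean of 72.7 ± 6.60 TPM was below that of Mmp12 alone among all MMP genes listed here. In replicate 2 Mmp12 was at 82.35 TPM, against 77.4 TPM for Mmp27. With Mmp27 added to the MMP sum, the share of Mmp12 was 49.2% and 38.8%, that of Mmp27 was 25.2% and 36.4%, and the ratio of TIMP to MMP level was 2.13 and 1.53.

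**Figure D2:**
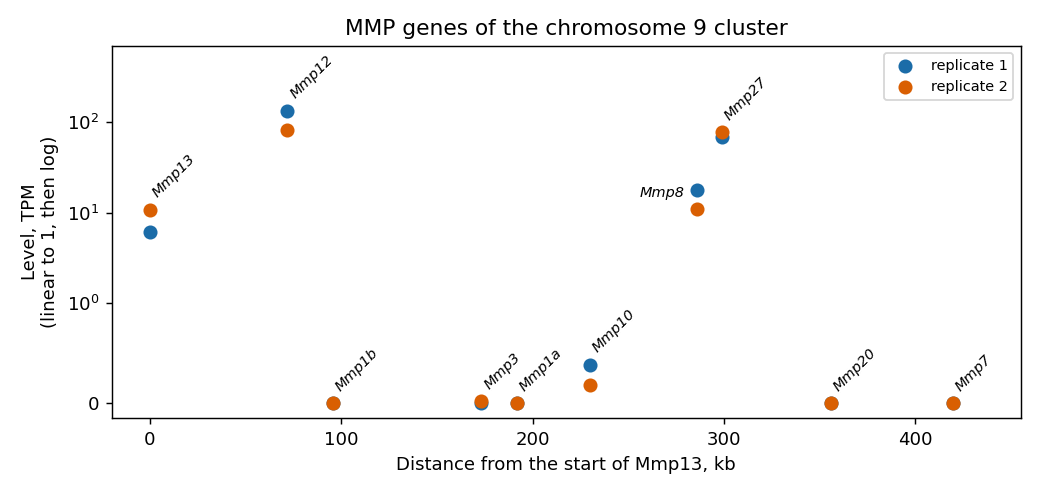
Level in TPM (linear to 1, then on a log scale) of the 10 MMP genes of the chromosome 9 cluster against the distance in kb from the start of Mmp13, with replicate 1 in blue and replicate 2 in orange. Mmp13, Mmp12, Mmp8 and Mmp27 stand between 6.02 and 133.02 TPM, and the other 6 are at or below 0.38 TPM.

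Promoter sequence was examined for those of the 10 genes with an available window. RefSeq windows on GRCm38.p6, from 250 bases before to 50 after a start site, were found for 7 of the 10 genes, with 8 windows in all. The letters TGAGTCA, the site of AP-1 (the factor made of FOS and JUN proteins), were searched on both strands. They occurred in the Mmp13 window and in the window of the downstream Mmp12 start, and in 5.20% of all 32851 windows of that length. The 100 bases before 3 start sites are shown 5′ to 3′ on the plus strand, at chr9:7347274-7347373 for the downstream start of Mmp12, chr9:7272414-7272513 for Mmp13 and chr9:7558329-7558428 for Mmp8. Capitals mark the AP-1 letters and, in Mmp13, also TATAAA, the letters of a TATA box.
Mmp12: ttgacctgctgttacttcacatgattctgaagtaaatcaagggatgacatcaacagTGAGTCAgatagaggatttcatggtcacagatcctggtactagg
Mmp13: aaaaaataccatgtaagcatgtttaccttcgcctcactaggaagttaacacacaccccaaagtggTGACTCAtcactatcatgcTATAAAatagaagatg
Mmp8: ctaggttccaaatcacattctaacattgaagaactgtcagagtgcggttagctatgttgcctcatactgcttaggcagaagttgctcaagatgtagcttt

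In Mmp12 the AP-1 letters ran from -44 to -38 and in Mmp13, on the other strand, from -35 to -29, counted back from the start site. The windows of Mmp8, Mmp14, Timp1, Timp2, Timp3 and the upstream Mmp12 start did not hold these letters. TATAAA, also searched on both strands and found in 13.6% of all windows, occurred in the windows of Mmp13, Mmp8 and the downstream Mmp12 start. In Mmp8 it spans the start site and in Mmp12 it lies at 5 to 10 after it, so neither is drawn in capitals. The cluster windows were poor in G and C, at 38.7% and 40.7% for the 2 Mmp12 starts, 43.7% for Mmp13 and 46% for Mmp8, against a median of 52.7% over all windows. Timp2 and Timp3 were at 68.7% and 67%, with 25 and 24 CG pairs against a median of 7. The RefSeq start of Timp2 lies 329 bases inside the first GENCODE start of the gene. These matches describe letters in a window and no binding was measured.

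The 2 Mmp12 start sites were both in use in the transcript tables, in unequal parts. The 5 transcripts from the downstream start, with first bases at 7347374 to 7347406, held 95.8% and 88.0% of the TPM of Mmp12 in the first quantification. In the second they held 74.1% and 68.4%. The rest was held by Mmp12-203, from the upstream start at 7344397, and the other upstream transcript was listed at 0 TPM throughout.

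The leading transcript of Mmp12 in the first quantification was Mmp12-204, annotated as a target of nonsense-mediated decay, the pathway that degrades mRNA with an early stop codon. It took 65.0% and 54.1% of the gene's TPM, and 46.6% and 37.5% in the second quantification, so its share was lower by a wide margin there. The coding transcript Mmp12-202 took 30.0% and 31.6%, and the coding transcript Mmp12-203 took 4.2% and 12.04%, but 25.9% and 31.6% in the second quantification. Mmp12-201, the annotated principal transcript, was at 0.65 and 0.47 TPM. These shares rest on little distinct sequence. All 2060 bases of Mmp12-204 lie in other Mmp12 transcripts, and 97.2% of them in Mmp12-201. Mmp12-203 has no base of its own either, and Mmp12-202 has 335. Of the TPM of Mmp12, 86.5 and 44.55 were those of Mmp12-204. Coding transcripts together took 34.7% and 44.3% in the first quantification and 52.6% and 60.3% in the second. The rank of Mmp12 above Mmp27, its share of the MMP level and the MMP sum include the part of Mmp12-204.

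Timp2 was divided between Timp2-201, with the full coding sequence, and Timp2-202, a coding model of 718 bases whose 3′ end is annotated as not found. Timp2-201 took 64.4% and 80.7% of the gene's TPM in the first quantification and 51.5% and 63.7% in the second. In expected counts it held 31873 and 31713, against 2326 and 949 for Timp2-202, so the TPM split reflects the short length of that incomplete model. Of the TPM of Timp2, 205 and 62.4 were those of Timp2-202. The ratios of Timp2 to Mmp14 and of TIMP to MMP level include this part. The share of Timp2-201 was higher in replicate 2 in both quantifications. Mmp19 was divided between 2 coding transcripts, Mmp19-201 and Mmp19-203. Mmp19-201 took 77.1% and 60.8% in the first quantification and 69.1% and 53.0% in the second. Mmp14 was almost wholly Mmp14-201, at 99.5% and 96.8%, and Mmp8 and Mmp13 have 1 annotated transcript each. The plot of transcript shares sets both quantifications side by side.

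**Figure D3:**
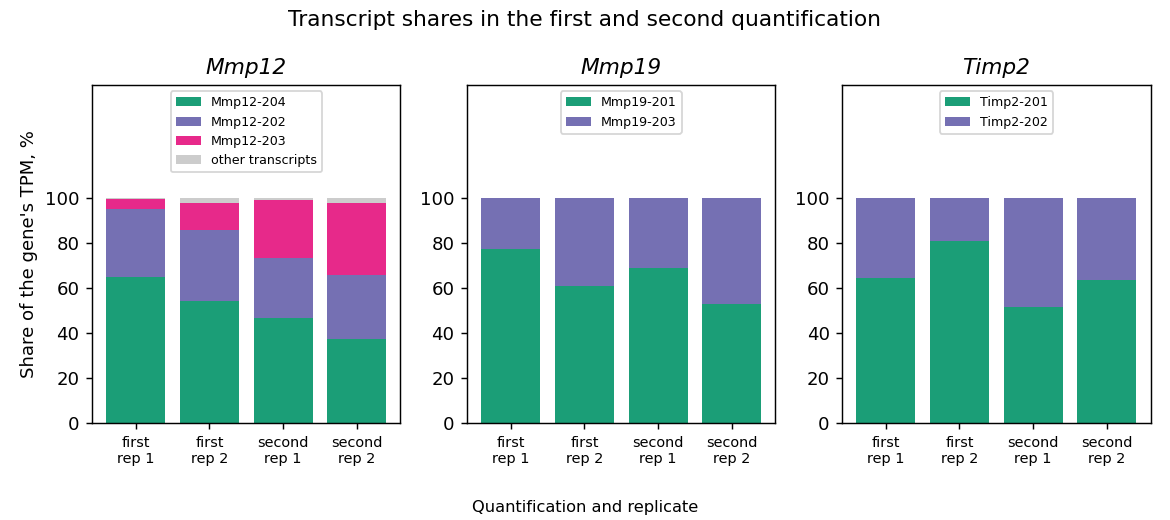
Share in percent of a gene's TPM by transcript for Mmp12, Mmp19 and Timp2, with bars for the first and the second quantification of replicates 1 and 2 and transcripts under 10% in both libraries in grey. Mmp12-204 goes from 65.0% and 54.1% in the first quantification to 46.6% and 37.5% in the second, where Mmp12-203 takes 25.9% and 31.6%.

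The libraries were then compared with each other. Expected counts, rounded to whole numbers, were scaled by TMM, edgeR's factor for differences in composition, and tested gene by gene with a two-sided exact binomial test with Benjamini-Hochberg adjustment over all 12266 genes with enough reads. This test compares the reads of 2 libraries of the same group and covers counting error only. Of the 10 genes, 9 could be tested, all but Timp1. Of the 9, 8 differed between the libraries at an adjusted p under 0.05, a share to be read against 63.2% of all genes tested. Lower in replicate 2 were 7, against 31.1% of all genes, and 1 was higher, against 32.1%. Scaled by total counts, which moved the median log2 ratio of all genes from 0.00 to 0.12, the split over all genes went from 3820 lower and 3934 higher to 2456 lower and 5232 higher, while the members stayed at 7 and 1.

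The same 8 genes lay more than 1.5-fold apart on this scale, where 21.2% of all genes tested did. The 7 lower in replicate 2 compare with 7.98% of all genes, and the 1 higher with 13.3%. The median log2 ratio of the 9 genes was -0.77, against 0.00 over all genes tested. The biological coefficient of variation over all genes was 0.250 by edgeR. With 1 library on each side, neither count has a replicate behind it.

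Mmp12 had 139 and 78.9 TMM-scaled CPM, and was lower in replicate 2 by 1.77-fold (95% counting interval 1.70 to 1.84). Mmp8 was lower by 1.73-fold (1.58 to 1.91), Mmp14 by 1.71-fold (1.57 to 1.86) and Mmp19 by 1.58-fold (1.48 to 1.69). Timp2, at 943 and 605 TMM-scaled CPM, was lower by 1.56-fold (1.54 to 1.58). These 4 proteases and the inhibitor thus stood lower in replicate 2 by 1.56-fold to 1.77-fold. In TPM the Timp2 difference was a log2 ratio of -0.83, against -0.64 in scaled counts, and its effective length in the gene table was 2379 bases in replicate 1 and 2842 in replicate 2.

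Mmp13 went the other way, with 9.98 and 16.8 TMM-scaled CPM, 1.68-fold higher in replicate 2 (1.49 to 1.91, exact binomial test, adjusted p = 3.42e-17). Of the members with few reads, Mmp9 was lower in replicate 2 by 1.97-fold (1.39 to 2.81, exact binomial test, adjusted p = 0.000248) and Timp3 by 2.38-fold (1.48 to 3.90, adjusted p = 0.000495). Mmp2 had a ratio of replicate 2 to replicate 1 of 1.12 (0.658 to 1.94, exact binomial test, adjusted p = 0.822). The ratio of Timp1, from 4 and 10 counts, was 1.68 with an interval of 0.484 to 7.33. The 8 genes called were those called with total counts, DESeq2 size factors, no filter on low counts and the second quantification.

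**Figure D4:**
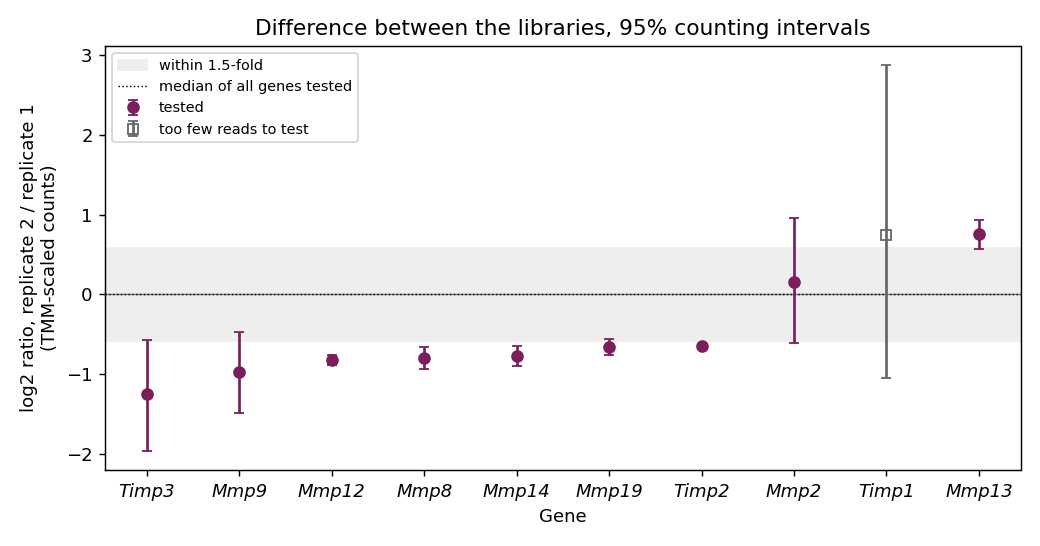
log2 ratio of replicate 2 to replicate 1 in TMM-scaled counts for the 10 genes, with bars for the 95% counting interval, a grey band for ratios within 1.5-fold and a dotted line for the median of all genes tested. Points of 7 genes lie below the band, from -1.25 for Timp3 to -0.64 for Timp2, Mmp13 lies above it at 0.75, and Timp1, drawn as an open square, had too few reads to test.

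Markers of other cells that carry these genes were read beside them. Neutrophil markers detected in both libraries were 4 of 12, and the summed level of the 12 was 359 and 59.7 TPM. S100a9 was at 183 and 37.1 TPM and Ngp at 39.2 and 2.09 TPM, while Ctsg had 13 and 0 counts and Ly6g 1 and 0. Of the 12, 6 could be tested and 4 were lower in replicate 2, where 31.1% of all genes tested were. Mmp8 and Mmp9 were lower too, and the part of neutrophils in the Mmp8 and Mmp9 values was not tested. In a bulk sample fewer cells of a type and less RNA per cell cannot be told apart.

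All 12 stromal markers were below 1 TPM in both libraries, with a summed level of 1.78 and 1.79 TPM and 0 counts of Lum. Mmp2, Timp1 and Timp3, genes known from such cells, were likewise low. Mmp13, also known from such cells, was not, at 6.02 and 10.7 TPM. Osteoclast markers detected in both were 5 of 8, with a summed level of 314 and 256 TPM, most of it Atp6v0d2 at 266 and 206 TPM. Calcr had 0 counts, Dcstamp was at 0.41 and 0.67 TPM and Ocstamp at 0.01 and 0.03 TPM. Dendritic cell markers detected in both were 2 of 8, with a summed level of 15.4 and 10.1 TPM. Of 6 osteoclast markers tested, 3 were lower in replicate 2, Atp6v0d2 among them, and 1, Nfatc1, was higher. Of 5 dendritic cell markers tested 3 were lower, and of the 10 macrophage markers 6 were lower and 4 higher. These counts are to be read against 31.1% of all genes tested lower and 32.1% higher. Mmp12, Mmp14 and Timp2 were lower in replicate 2 too, and the part of osteoclasts and dendritic cells in those values was not tested.

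The other genes of the pathway were read from 7 lists with 73 genes in all. Of these, 22 were detected in both libraries, to be read against 19.2% of all annotated genes and 45.3% of protein-coding genes. Of 33 that could be tested between the libraries, 15 were lower in replicate 2, to be read against 31.1% of all genes tested, and 8 were higher, against 32.1%. Scaled by total counts, 13 were lower and 9 higher. Of the 16 other MMP genes 15 were below 1 TPM in both libraries in the gene tables, 7 of them with 0 counts, and the exception was Mmp27. Mmp16, a membrane-type MMP and 1 of those 7, differed between the quantifications, since the second gave it 99.3 and 220.1 estimated counts, or 0.958 and 1.70 TPM. Timp4, the remaining inhibitor, had 0 counts in the gene tables and 0 and 6.16 in the second quantification.

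ADAM proteases, which share their inhibitors in part with MMPs, were more widely expressed. Of the 9 listed, 7 were detected in both libraries. Adam8, a leukocyte sheddase, was at 330 and 174 TPM, above every MMP gene listed here in each library. Adam15 was at 87.9 and 94.6 TPM, Adam9 at 79.1 and 73.7 TPM and Adam17, the TNF sheddase that TIMP3 inhibits, at 61.5 and 76.0 TPM. Of the 7 tested, 3 were lower in replicate 2 and 3 higher, where 31.1% and 32.1% of all genes tested were. Of 10 ADAMTS proteases, secreted relatives that cut proteoglycans, 2 were detected in both libraries and none reached 10 TPM.

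Of 10 activators of latent MMPs, 3 reached 1 TPM in both libraries. These were Plau, which encodes the urokinase that makes plasmin, at 74.5 and 48.1 TPM, Furin, the convertase that activates MMP14, at 35.7 and 44.98 TPM, and the convertase gene Pcsk7 at 12.8 and 13.8 TPM. The neutrophil protease Elane had 20 and 1 counts. Of 12 genes for partners, brakes and clearance of MMPs, 7 were detected in both libraries, and all 7 tested were lower in replicate 2, where 31.1% of all genes tested were. Scaled by total counts 5 were, without Cd63 and the integrin gene Itgav. The most abundant were Cd63, a tetraspanin that binds TIMP1, at 1339 TPM in each library, Lrp1, the endocytic receptor that clears MMPs, at 408 and 292 TPM, Bsg, which encodes the MMP inducer CD147, at 337 and 274 TPM, and Cd44, a docking site for MMP9, at 186 and 116 TPM. The CPM of Cd63 was 706.5 and 707.1, and its ratio in TMM-scaled counts was 0.923. Reck, the membrane-anchored MMP inhibitor, had 24 and 11 counts.

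Of 15 matrix substrates, 12 stayed under 1 TPM in each library, including elastin (Eln), the substrate for which Mmp12 is named. Eln had 0 and 1 counts in the gene tables, but 7.45 and 58.2 estimated counts, or 0.163 and 0.956 TPM, in the second quantification. Spp1, which encodes osteopontin, was the exception in level at 2400 and 2935 TPM, and Lamc1, a laminin chain, was at 14.2 and 12.1 TPM. The plot of pathway genes shows the lists side by side.

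**Figure D5:**
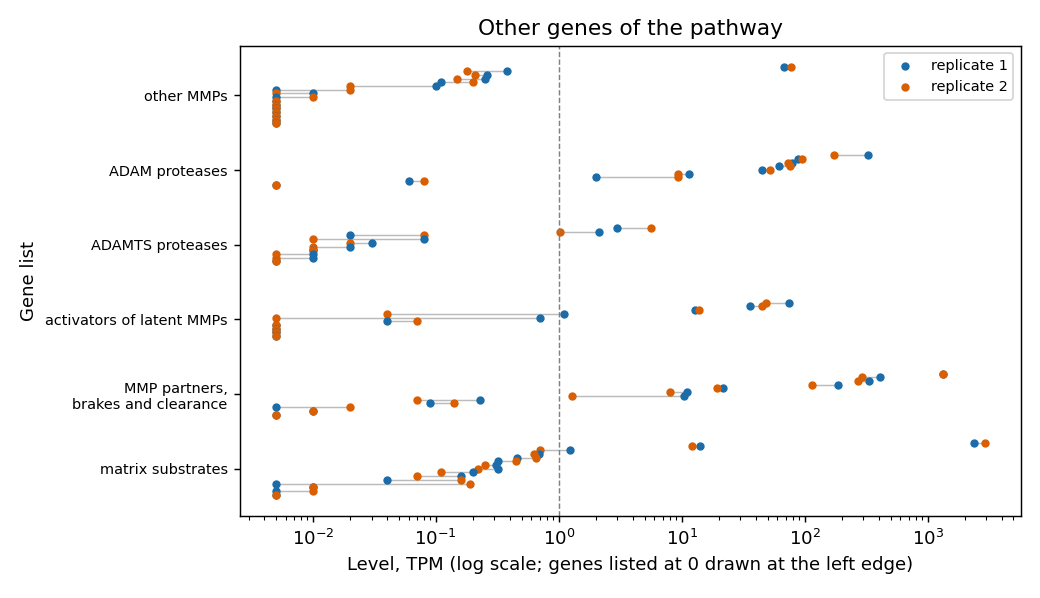
Level in TPM from the gene tables on a log axis for the genes of 6 pathway lists, 1 row of points per gene, blue for replicate 1 and orange for replicate 2, with a grey line joining the libraries, a dashed line at 1 TPM and genes listed at 0 drawn at the left edge. The other MMPs lie left of the line but for Mmp27 at 68.0 and 77.4 TPM, while 7 of 9 ADAM genes lie right of it.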

How the data were processed

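RNA-seq of 2 libraries from 1 treated group was analysed. The deposited text files name assembly mm10 and annotation M21 for each table. Aligner, quantifier and use of strand are not stated there. Gene and transcript tables derive from a transcriptome alignment (the first quantification), and another transcript table derives from the reads and an index (the second, summed over each gene's transcripts as an alternative). Expected counts in the deposited tables are estimated reads, not normalized. The deposited TPM values, and a posterior mean TPM, are scaled to transcript length and library. A percent of each gene's TPM per transcript was deposited too, and shares were recomputed from TPM. Of the entries, 26345 name no gene and were left out.

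The 10 members and all lists were chosen with earlier results of these data known. Detection meant 1 TPM in both libraries. Expected counts were rounded, filtered with filterByExpr and scaled with TMM in edgeR 4.0.16 (R 4.3.3), and an exact binomial test per gene was adjusted over all genes. The coefficient of variation is the root of edgeR's common dispersion in an intercept-only design. DESeq2 1.42.0 size factors were an alternative. The binomial script was tested on simulated counts with counting error only, so that check does not cover other spread between the libraries. Intervals are exact 95% intervals. They and the limits on a count of 0 cover counting error only, as no molecular identifiers tell PCR copies apart.

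All 10 members are named. Of each list, members at a mean of 10 TPM or more were named, at most 4, and transcripts at 10% or more in either library. Named beyond that rule, after their values were seen, were cluster genes, overlapping genes, markers, Mmp12-201, Mmp16, Timp4, Elane, Itgav, Reck and Eln. Calls in the lists under other scalings were added after seeing the data. No protein sequences were used here. Alternatives were other detection limits, quantification, scaling, filters, fold scales and leaving out each library.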

Additional observations from a re-analysis of the deposited data

How the results depend on the processing

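With 1 library left out, the number of the 10 genes detected ran from 6 to 7 and that of pathway genes from 22 to 24, the median level of the 10 genes from 10.8 to 11.9 TPM (11.3 ± 0.764 as reported), and the ratio of TIMP to MMP level from 2.40 to 2.85. Under the second quantification the median was 10.02 TPM, the ratio 3.01, and the mean shares of Mmp12-204, Mmp14-201 and Timp2-201 were 42.1%, 95.3% and 57.6%, against 59.6%, 98.1% and 72.5% as reported. Without ribosomal RNA, which took 10.4% and 4.74% of TPM, the median was 12.3 TPM. With Mmp27 in the MMP sum, chosen after seeing the data, the mean ratio was 1.83. On the scale of log2(TPM + 1), which understates low genes, 5 genes lay past 1.5-fold in place of 8, where 14.7% of all genes did. By the TPM ratio 7 did, against 24.3% of all genes, and scaled by total counts 6 did, against 23.4%. The cause of the differences between the quantifications was not tested. Limits of 0.5 and 5 TPM detected 7 and 6 genes. The direction between the libraries was the same under TPM, the second quantification, posterior mean TPM and TPM without ribosomal RNA for every gene but Mmp2. No paired analysis was possible because there was 1 group. Depth limits Timp1, Mmp2, Timp3 and Mmp9, each under 100 counts in both libraries.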
